A study of Homo sapiens with 6 samples.

Results

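The enzymes that make serine and glycine and feed folate with one-carbon units were described on 6 Affymetrix arrays of RNA from OVCA432, a line of human high grade serous ovarian cancer cells kept in culture. The set held 10 genes, PHGDH, PSAT1, PSPH, SHMT1, SHMT2, MTHFD1, MTHFD2, MTHFD1L, GNMT and ALDH1L2. The genes were chosen by pathway and selected with results from the same MFAP5 against control comparison already known, so the values below describe these arrays and support no claim about the set. Of the genes with a probe set of their own on the array, 19775 in all, these were 10, and they carried 21 probe sets. Testing was limited to probe sets at least as bright, by mean log2 signal over the 6 arrays, as the median non-control probe set (signal 53.7). This left 12 probe sets of 7 genes, and SHMT1, MTHFD1L and ALDH1L2 had none bright enough.

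In 3 samples the cells had received 200 ng/mL of recombinant human MFAP5, a secreted protein of matrix microfibrils, and in 3 others the same amount of solvent. Both groups had gone without serum for 24 h beforehand, stayed in serum-free medium, and gave RNA 48 h after the addition. The samples were numbered replicates of this 1 cell line, so p-values measure the spread between these samples and not between cell lines. The deposited MAS5 signals had a trimmed mean of 500.07, averaged over the 6 arrays. The brightest Bacillus control probe set, for RNA that human cells do not make, had a signal of 26.4 to 55.9 and served as the detection level of each array. All 8 markers of ovarian carcinoma epithelium lay above it on every array, EPCAM, KRT18 and PAX8 among them. Of the 14 markers of fibroblasts, leukocytes, endothelium and liver, 2 did so, COL1A1 and APOA1. The 3' to 5' log2 ratio of GAPDH, a measure of RNA integrity, ran from -0.199 to -0.058 in control and from -0.127 to -0.063 in MFAP5 cells (exact permutation p = 0.50, two-sided, n = 3 each, smallest possible p = 0.10).

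Serine is made from a glycolytic intermediate by PHGDH, PSAT1 and PSPH in turn. The serine hydroxymethyltransferases, SHMT1 in the cytosol and SHMT2 in mitochondria, split it into glycine and a one-carbon unit on tetrahydrofolate. In mitochondria MTHFD2 and MTHFD1L carry that unit on to formate and ALDH1L2 can oxidise it, while in the cytosol MTHFD1 takes up formate for the synthesis of purines and thymidylate. GNMT works at the other end of the pathway, where it methylates glycine with S-adenosylmethionine and so sets how much of that methyl donor is spent. Serine synthesis genes and MTHFD2 are known targets of the transcription factor ATF4, and several genes of the folate pathway are known targets of MYC.

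With MFAP5, the GNMT signal fell from a low level to near the detection level, with a log2 fold change of -2.16 on the deposited signals and -1.27 with 50 added to each, and 1 of 3 SHMT2 probe sets was slightly lower, while no probe set of the 10 genes was called higher. Calls were made with limma at an adjusted p below 0.05 over all 27307 probe sets tested. Among the 12 tested probe sets of the enzymes, 0 were called higher, 2 lower and 10 were not called. Over all probe sets tested, 13.5% were called higher and 11.8% lower. With the brightest tested probe set standing for each gene, 0 of the 7 enzymes were called higher and 1, GNMT, lower, where 14.6% of all 12216 genes were called higher and 15.3% lower. Every control signal lay on the same side of every MFAP5 signal for 3 of the 12 probe sets, of GNMT, SHMT2 and MTHFD1, beside 41.0% of all probe sets tested. The median log2 fold change of the 7 enzymes was 0.07, and that of all genes tested was -0.0084. The comparison had chosen the set, so nothing is read from these counts, and no p-value is quoted for its members.

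**Figure D1:**
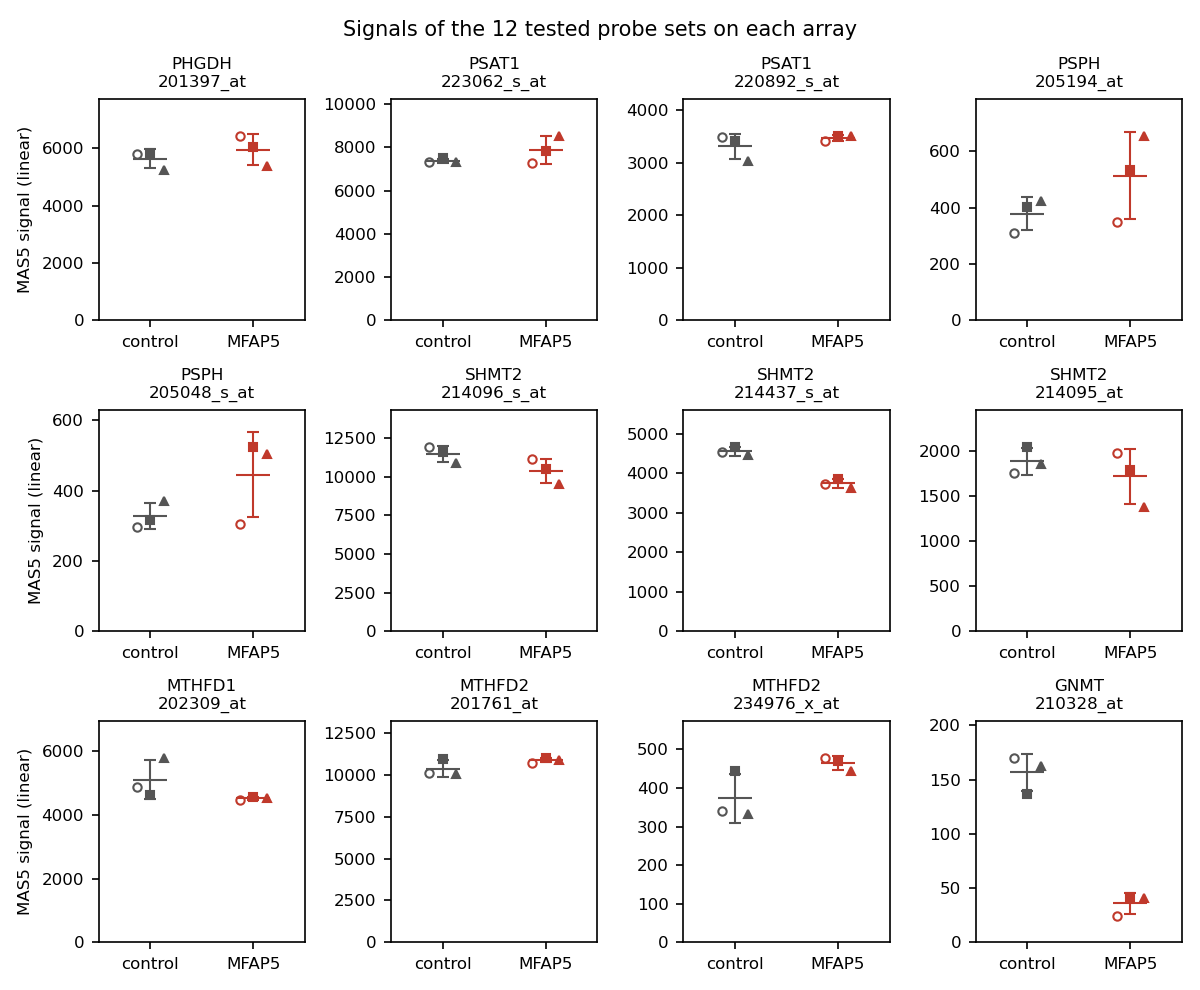
MAS5 signal (linear, from 0) of the 12 tested probe sets on the 3 control (grey) and 3 MFAP5 arrays (red), with mean and SD as bars and replicates 1, 2 and 3 as circles, squares and triangles. The GNMT signals go from 137 to 170.1 in control to 24.7 to 42.0 with MFAP5, the PSPH signals of MFAP5 replicate 1 lie among the controls, and the other panels differ little between groups.

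Promoter sequence came from RefSeq (build GRCh38.p14), in windows from 250 bases before to 50 after a gene's start, and 7 of the 10 genes had at least 1 window. Each window was searched on both strands for TGATGNAA, the core of the composite element that C/EBP and ATF4 factors bind, and for CACGTG, the E-box that MYC binds. TGATGNAA was present in 3.62% of the 35116 windows of all genes and CACGTG in 7.26%. These shares are per window, while the matches below are counted per gene over all its windows, so the units differ. Of the enzymes, MTHFD1L held both motifs, which do not overlap, MTHFD1 held CACGTG, and the windows of PHGDH, PSAT1, MTHFD2, GNMT and SHMT1 held neither. A match is a description of the letters, and the lack of one says only that they are not in this window.

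The first sequence below is the stretch before the start of GNMT, the enzyme with the largest difference (chr6:42960604-42960753, plus strand, 150 bases, 70.7% G or C). The next is the MTHFD1 E-box with the bases around it (chr14:64388318-64388352, plus strand), with the motif in capitals 15 to 10 bases before the start.
GNMT: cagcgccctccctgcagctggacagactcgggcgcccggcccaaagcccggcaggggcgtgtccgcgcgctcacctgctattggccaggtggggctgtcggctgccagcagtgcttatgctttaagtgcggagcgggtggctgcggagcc
MTHFD1: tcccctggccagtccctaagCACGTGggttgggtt

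Of the 14 genes listed as regulators of the enzymes or marker targets of ATF4, 3 held TGATGNAA, namely ASNS, CHAC1 and ATF3, among 12 with a window, and 3 held CACGTG, namely EHMT2, KDM4C and ATF4. The list was drawn up to hold marker targets of ATF4, so its TGATGNAA matches are a description only. ATF4, which holds CACGTG, also rose with MFAP5 and is not shown. ASNS, CHAC1 and ATF3 are shown because they hold TGATGNAA and their mRNA rose with MFAP5, with the 8 bases of the match in capitals. They lie at chr7:97872449-97872496 (minus strand), chr15:40953242-40953289 (plus strand) and chr1:212565196-212565243 (plus strand), each read along the gene, and the CHAC1 match is on the opposite strand to the gene.
ASNS: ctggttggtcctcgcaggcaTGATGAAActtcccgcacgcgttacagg
CHAC1: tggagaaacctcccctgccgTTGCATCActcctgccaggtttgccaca
ATF3: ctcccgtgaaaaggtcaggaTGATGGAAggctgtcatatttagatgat

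No serine synthesis enzyme was called, and PHGDH and PSAT1 differed little at the mRNA level. PHGDH, the dehydrogenase that opens the route, had signals of 5806, 5828 and 5243 on the control arrays and 6430, 6048 and 5374 on the MFAP5 arrays. The groups overlapped, since 1 MFAP5 array lay below both higher controls. The ratio of MFAP5 to control was 1.06 (95% interval 0.935 to 1.19, n = 3 each), so a rise of more than about 1.19-fold lay outside the interval. A further probe set names PHGDH together with other genes and was not used.

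PSAT1, the aminotransferase of the second step, was read by a pair of probe sets. The brighter (223062_s_at) gave 7343, 7497 and 7310 in control and 7280, 7823 and 8539 in MFAP5 cells. The dimmer (220892_s_at) gave 3486, 3415 and 3041 in control and 3407, 3512 and 3507 in MFAP5 cells. Their ratios were close together, at 1.07 (0.958 to 1.18) and 1.05 (0.943 to 1.17, 95% intervals, n = 3 each), and on both the groups overlapped. RefSeq lists pseudogenes of PSAT1, and probe sets of the _s_at type can read near-identical transcripts, so a share of this signal may come from a copy.

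PSPH, the phosphatase that releases serine, had the highest ratio of the 3, without a call. Its probe set 205194_at gave 311, 401 and 422 in control and 349, 534 and 655 in MFAP5 cells. Its probe set 205048_s_at gave 298, 316 and 371 in control and 306, 525 and 505 in MFAP5 cells. On both, MFAP5 replicates 2 and 3 lay above every control while MFAP5 replicate 1 lay among the controls. The mean signal on 205194_at was 378 ± 59 in control and 513 ± 154 in MFAP5 cells (SD, n = 3 each), a ratio of 1.32 (95% interval 0.952 to 1.84), and that on 205048_s_at had a ratio of 1.33 (0.976 to 1.80). Without MFAP5 replicate 1 both probe sets were called higher, with log2 fold changes of 0.66 and 0.66. The third PSPH probe set was too dim to be tested, with signals of 28.8 to 75.3, and RefSeq lists a pseudogene, PSPHP1.

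SHMT2, the mitochondrial enzyme that makes glycine, had lower mean signals with MFAP5 on all 3 of its probe sets, 1 of them called. The called probe set (214437_s_at) gave 4536, 4670 and 4458 in control and 3735, 3867 and 3628 in MFAP5 cells. The groups did not overlap, and the values lay close together within each group. Control was 1.22-fold above MFAP5 on it (95% interval 1.11 to 1.34), a log2 fold change of -0.28 ± 0.06 (SE, n = 3 each). The call was lost when arrays were centred on hybridisation controls, although the log2 fold change was then -0.34.

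The brightest SHMT2 probe set (214096_s_at) gave 11916, 11563 and 10875 in control and 11101, 10458 and 9503 in MFAP5 cells. The groups overlapped on it, and control was 1.11-fold above MFAP5 (0.992 to 1.24). The third (214095_at) gave 1750, 2044 and 1854 against 1979, 1785 and 1383, with wide overlap and the same ratio of 1.11 (0.916 to 1.34). The probe sets of SHMT2 thus shared a sign, and the difference in size between them was not tested.

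MTHFD2, the mitochondrial dehydrogenase and cyclohydrolase that is low in most adult tissues and high in many tumours, stood at nearly the same level in both groups on its brighter probe set. That probe set (201761_at) gave 10125, 10922 and 10034 in control and 10713, 11001 and 10896 in MFAP5 cells. The ratio was 1.05 (95% interval 0.959 to 1.15, n = 3 each), the narrowest interval of the 12 probe sets on the log2 scale. The dimmer probe set (234976_x_at) gave 341, 445 and 333 in control and 478, 471 and 444 in MFAP5 cells, where the highest control lay just above the lowest MFAP5 array. Its ratio was 1.26 (1.02 to 1.54) without a call, and it was called higher when control replicate 2 was left out (log2 fold change 0.46). RefSeq lists pseudogenes of MTHFD2, and probe sets of the _x_at type can share probes between similar sequences.

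MTHFD1, the cytosolic enzyme with all 3 folate activities, had a lower mean signal with MFAP5 and was not called. Its tested probe set (202309_at) gave 4872, 4630 and 5790 in control and 4459, 4558 and 4536 in MFAP5 cells. The groups did not overlap, but the distance between the lowest control and the highest MFAP5 array was small and control replicate 3 lay far above the other controls. Control was 1.12-fold above MFAP5 (95% interval 0.988 to 1.28, n = 3 each). A call for MTHFD1 and for the brightest SHMT2 probe set appeared when arrays were centred on their medians, with log2 fold changes of -0.31 and -0.29. That centring moved the median log2 fold change of all probe sets tested from 0.02 to -0.12, and it turned the small positive values of PHGDH, both PSAT1 probe sets and the brighter MTHFD2 probe set to between -0.07 and -0.05.

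GNMT, which spends S-adenosylmethionine on glycine and is best known as an abundant enzyme of liver, had the largest difference of the 10. Its only probe set (210328_at) gave 170.1, 137 and 163 in control and 24.7, 42.0 and 41.3 in MFAP5 cells. Every control lay far above every MFAP5 array, and the groups did not overlap. The mean fell from 157 ± 17 to 36.0 ± 9.8 (SD, n = 3 each), with a log2 fold change of -2.16 ± 0.28 (SE, 95% interval of the fold 2.90 to 6.85). All 3 control signals and 2 of the 3 MFAP5 signals were above the brightest Bacillus control, and MFAP5 replicate 1 was not. The MFAP5 mean lay below the brightness limit of 53.7, so the probe set was tested only because of its control signals. The 4.46-fold ratio of the deposited signals therefore rests on values near the detection level. Of the liver markers, ALB was above the brightest Bacillus control on 1 of 6 arrays, TTR on 1 and APOA1 on all 6. The summed signal of ALB, APOA1 and TTR was 567 to 744 in control and 502 to 595 in MFAP5 cells. APOA1, with means of 605 and 492, made up most of that sum. The part of other liver-type transcripts in the GNMT result was not tested.

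**Figure D2:**
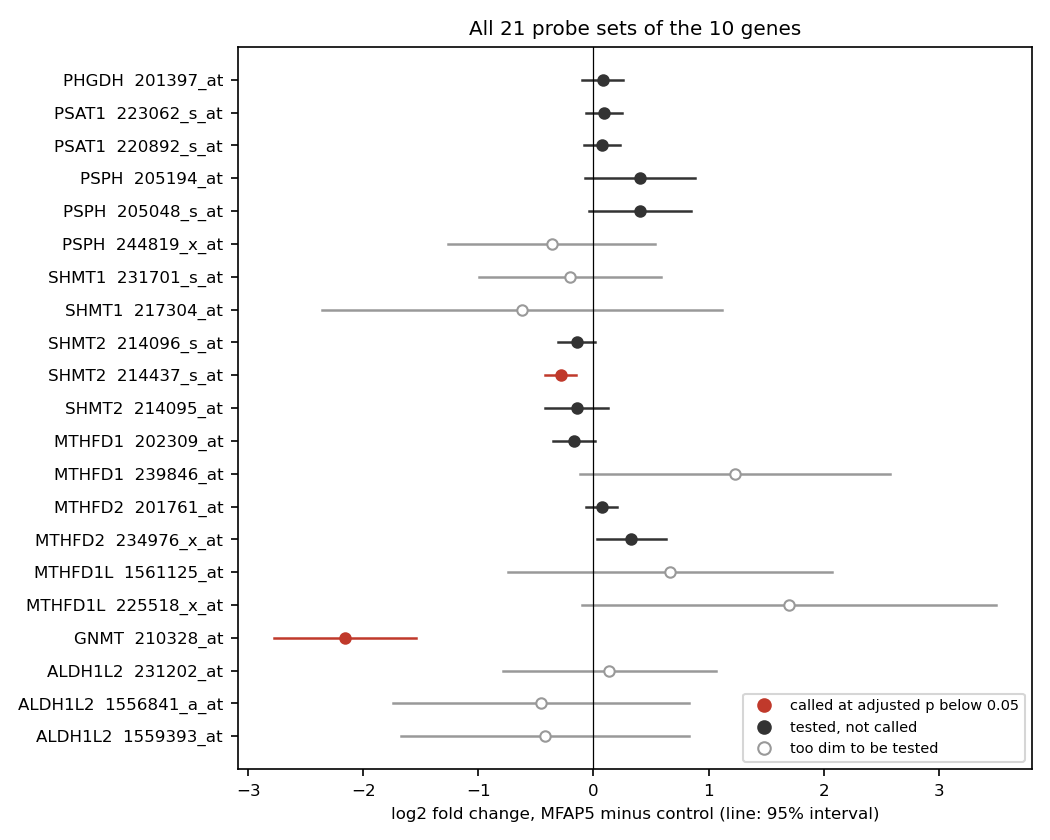
Log2 fold change (MFAP5 minus control, points) and its 95% interval (lines) for all 21 probe sets of the 10 genes, n = 3 arrays per group. GNMT at -2.16 and 1 SHMT2 probe set at -0.28 are called (red), the other tested probe sets (black) lie between -0.17 and 0.41, and the dim probe sets (open grey) have wide intervals.

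The 3 genes without a tested probe set were at or near the detection level. SHMT1, the cytosolic hydroxymethyltransferase, had signals of 4.45 to 64.5 on its 2 probe sets. MTHFD1L, the mitochondrial formate-releasing enzyme, had 3.15 to 37.9 on its 2, and none of these 12 values was above the brightest Bacillus control of its array. ALDH1L2, the mitochondrial formyltetrahydrofolate dehydrogenase, had 14.4 to 69.4 on its 3. Among the 9 dim probe sets of the 10 genes 1, of PSPH, lay above that control on every array. A second MTHFD1 probe set (239846_at) was dim as well, with 6.93 to 18.7 in control and 23.5 to 37.1 in MFAP5 cells, and was above that control on 0 of the control arrays and 2 of the MFAP5 arrays. For SHMT1 and MTHFD1L, 2 probe sets each also carry the names of other genes and were not used, so a low signal here does not show that the mRNA was absent.

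**Figure D3:**
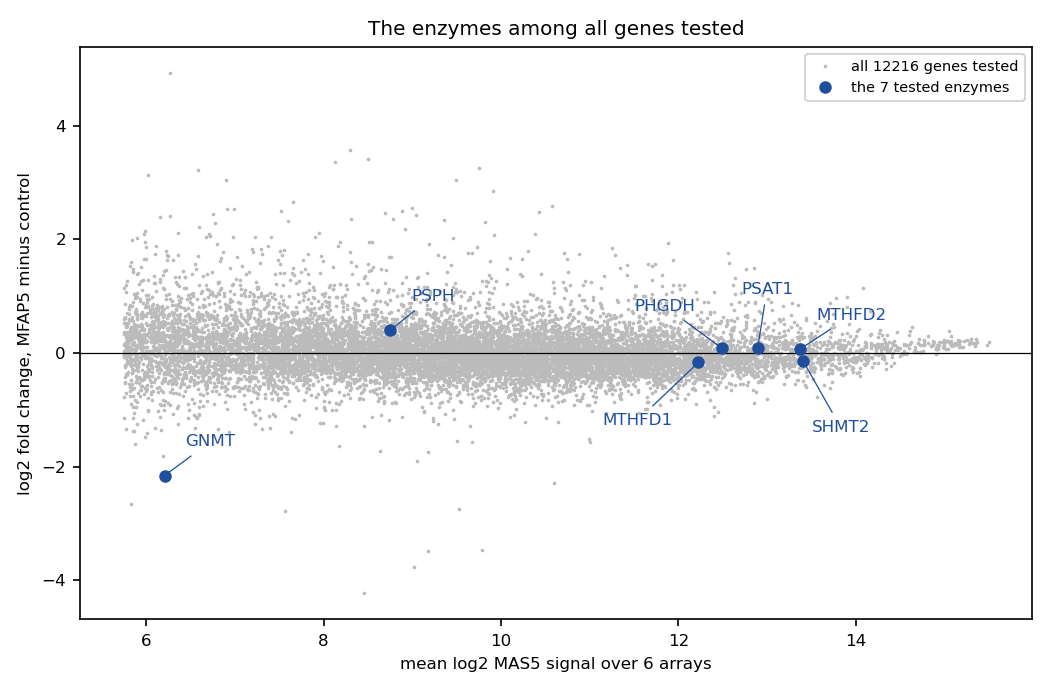
Log2 fold change (MFAP5 minus control) against the mean log2 MAS5 signal over the 6 arrays for all 12216 genes tested (grey) and the 7 tested enzymes (blue). GNMT stands at the dim end at -2.16, PSPH at 0.40, and PHGDH, PSAT1, MTHFD1, MTHFD2 and SHMT2 lie near 0 among bright genes.

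Most of the listed regulators of the enzymes and marker targets of ATF4 were called. Of 13 genes tested, 7 rose, 1 fell and 5 were not called, beside 14.6% higher and 15.3% lower over all genes tested, and their median log2 fold change was 0.33. Those not called, named after their values were seen, were SESN2, ATF5, KDM4C, EHMT2 and HIF1A. On their brightest probe sets their log2 fold changes were -0.02, -0.16, 0.04, -0.39 and 0.36 in that order. This list and the 5 below were drawn up with earlier results of the comparison known, so their counts are a description. CHAC1, which degrades glutathione, rose 2.89-fold, from 211, 213 and 163 to 576, 586 and 525 (limma adjusted p = 5.15e-05, n = 3 each). The stress-induced transcription factor ATF3 rose 2.43-fold on its brightest probe set (adjusted p = 0.00287), with no call on its other, and DDIT3, which encodes CHOP, rose 1.99-fold (adjusted p = 0.000261). Named after their values were seen, ATF4 itself rose 1.26-fold (13837, 13900 and 11897 against 17463, 17106 and 15204, adjusted p = 0.0138), asparagine synthetase (ASNS) rose 1.46-fold (adjusted p = 0.000198) and the pseudokinase TRIB3 1.80-fold (adjusted p = 2.08e-05). MYC, likewise named afterwards, fell by 0.56 on the log2 scale, from 18327, 16002 and 12665 to 11282, 10622 and 9722 (adjusted p = 0.0069). The calls of ATF4, ASNS, TRIB3 and MYC were not followed one by one under the alternatives. Over all lists together, higher calls went from 12 to 9 with centring on array medians and to 7 with centring on hybridisation controls.

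Of the other genes of glycine metabolism, 2 fell, 0 rose and 5 were not called among 7 tested, where 15.3% of all genes tested were lower and 14.6% higher. GCAT, which splits the threonine product aminoketobutyrate into glycine and acetyl-CoA, was 2.03-fold lower, from 3131, 2985 and 2845 to 1556, 1524 and 1333 (limma adjusted p = 1.81e-05, n = 3 each), with a fall on a further probe set too. AMT, the aminomethyltransferase of the glycine cleavage system, fell by 0.62 on the log2 scale (adjusted p = 0.00352). The other cleavage proteins were not called on their brightest probe sets, with log2 fold changes of 0.09 for GLDC, -0.21 for GCSH and -0.23 for DLD, while a dimmer GCSH probe set was called lower (-0.35). Their median log2 fold change was -0.21, beside -0.0084 over all genes tested.

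Among folate cycle enzymes and carriers, 1 rose, 2 fell and 8 were not called of 11 tested, near the shares of all genes, 14.6% higher and 15.3% lower. The reduced folate carrier SLC19A1 fell by 0.40 on the log2 scale (adjusted p = 0.0131) and MTFMT, which formylates the mitochondrial initiator tRNA, fell by 0.38 on the log2 scale (adjusted p = 0.00566). Both calls were lost when arrays were centred on hybridisation controls (adjusted p = 0.0707 and 0.0616). None of the 3 other SLC19A1 probe sets tested was called, and the mean of the probe sets had a log2 fold change of -0.13 (adjusted p = 0.632). The folate receptor FOLR1 rose 1.59-fold on its brightest probe set (limma adjusted p = 4.13e-05, n = 3 each), while its other tested probe set was called lower with a log2 fold change of -0.69, so its direction is not settled here. MTHFD2L, the paralog of MTHFD2, was not called (626 in control and 519 in MFAP5 cells, adjusted p = 0.175). TYMS, the thymidylate synthase, was not called either (log2 fold change -0.10 ± 0.06 SE).

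Of 11 tested genes of purine synthesis, a route with some steps that use formyl groups, 5 fell, 0 rose and 6 were not called, beside 15.3% lower and 14.6% higher over all genes tested. ADSL, the adenylosuccinate lyase, fell by 0.51 on the log2 scale, from 9600, 9643 and 8979 to 6878, 6483 and 6428 (limma adjusted p = 0.000261, n = 3 each). The phosphoribosyl pyrophosphate synthetases PRPS1 and PRPS2 fell by 0.38 and 0.37 on the log2 scale (adjusted p = 0.00401 and 0.00704), and the other probe set of each fell too. ATIC, which consumes a formyl group in the last steps, and GMPS, named after their values were seen, fell by 0.26 and 0.19 on the log2 scale (adjusted p = 0.0277 and 0.0475), and 1 of the 2 other GMPS probe sets was called higher. The calls of ATIC and GMPS were not followed one by one under the alternatives. Over all lists together, lower calls went from 11 to 7 with centring on hybridisation controls and to 25 with centring on array medians. PAICS, also named afterwards, was not called on its brightest probe set. Of its 2 other tested probe sets, with log2 fold changes of -0.42 and 0.44, only 1 was not called. The median log2 fold change of the 11 genes was -0.19.

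In the methionine cycle and transsulfuration 2 genes rose, 0 fell and 8 were not called of 10 tested, with 14.6% of all genes higher and 15.3% lower. NNMT, which like GNMT spends S-adenosylmethionine on a small molecule, in its case nicotinamide, gave 54.7, 48.7 and 48.4 in control and 228, 190 and 205 in MFAP5 cells and was called higher, with no overlap. Its control mean of 50.6 lay below the brightness limit of 53.7, so it was tested only because of its MFAP5 signals, and on 1 of 3 control arrays it did not exceed the brightest Bacillus control. The log2 fold change was 2.03 on the deposited signals and 1.35 with 50 added to each. CBS, which joins serine and homocysteine, rose 1.21-fold on its brightest probe set (limma adjusted p = 0.0109), and its 2 other probe sets were not called. That call was lost under 5 alternatives, with an adjusted p of 0.139 (log2 fold change 0.14) after centring on array medians, 0.354 after centring on hybridisation controls, 0.0532 with no intensity trend, 0.0977 for the mean of its probe sets and 0.0644 without MFAP5 replicate 2. AHCY, which clears the product of these methylations, was not called (log2 fold change -0.04 ± 0.08 SE). MAT2A and AHCYL1, named after their values were seen, were not called on their brightest probe sets. The other MAT2A probe set was called lower (log2 fold change -0.34), and 1 of the 2 other AHCYL1 probe sets was called higher.

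Of the genes for transport and breakdown of serine and glycine, 2 rose, 1 fell and 4 were not called of 7 tested, with 14.6% of all genes higher and 15.3% lower. SLC1A4, a carrier of neutral amino acids with serine among them, rose 1.39-fold (limma adjusted p = 0.00199, n = 3 each), and so did the 4 other probe sets of the gene, although centring on hybridisation controls ended the call (adjusted p = 0.0802). SRR, the serine racemase, rose 1.39-fold on its brightest probe set (adjusted p = 0.0111), while 1 of its 3 others was called lower. The mean of its probe sets had a log2 fold change of 0.0064 (adjusted p = 0.964) and centring on hybridisation controls ended the call (adjusted p = 0.0829), so its direction is not settled here. SFXN2, a mitochondrial carrier related to the serine carrier SFXN1, fell by 0.98 on the log2 scale, from 4549, 4662 and 4303 to 2357, 2250 and 2245 (adjusted p = 5.02e-06), and its other probe set was not called. SFXN1 was not called on any of its 3 probe sets tested. SFXN3, named after its values were seen, was not called on its brightest probe set (log2 fold change 0.25). Its 2 other tested probe sets were called higher, with log2 fold changes of 0.73 and 0.76. Over all 6 lists together 12 genes rose, 11 fell and 36 were not called of 59 tested, beside 14.6% and 15.3% of all genes.

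**Figure D4:**
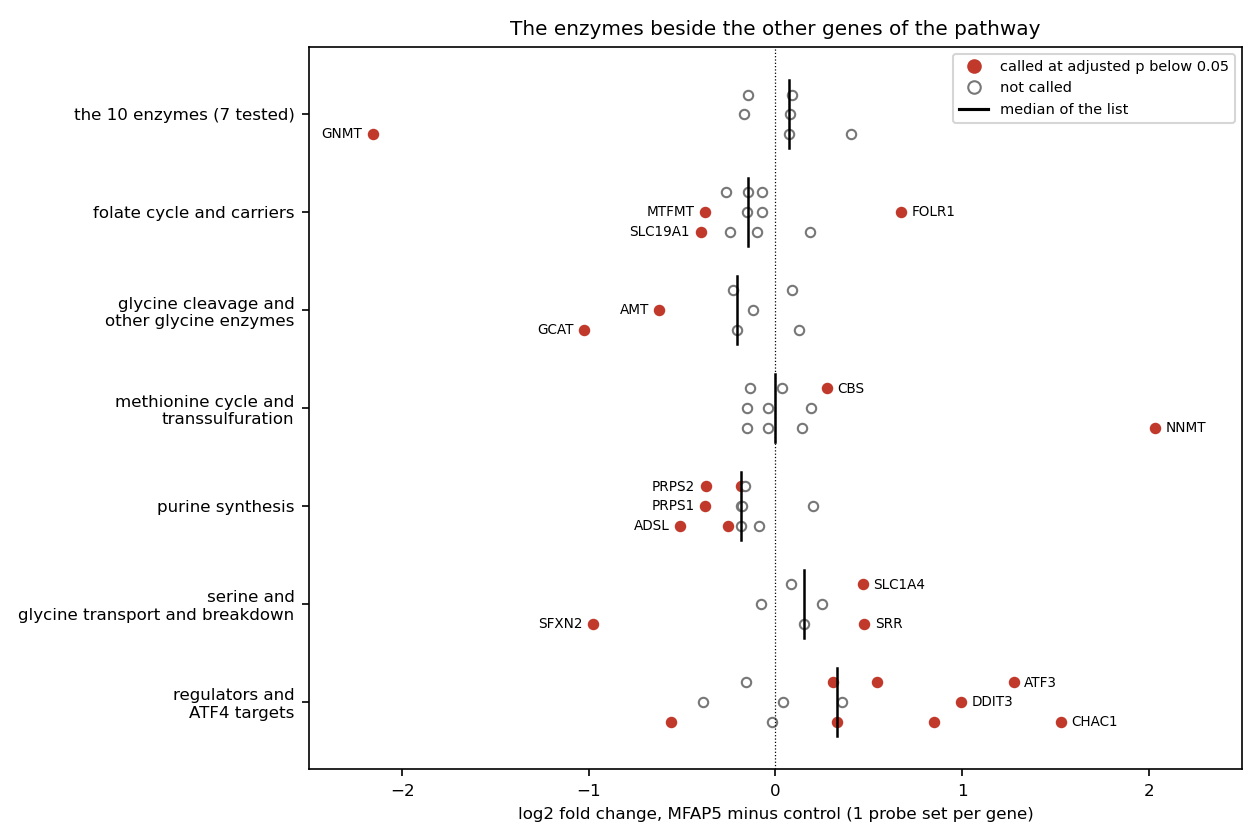
Log2 fold change (MFAP5 minus control) of each tested gene by its brightest probe set, for the 7 tested enzymes and the 6 lists of other pathway genes, with calls in red and the list median as a bar. Regulators and ATF4 targets have the highest median, 0.33, glycine enzymes the lowest, -0.21, and the enzymes apart from GNMT lie between -0.17 and 0.40.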

How the data were processed

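Biotin-labelled cRNA from 100 ng of total RNA was hybridised to Affymetrix arrays, 1 per sample, per the labels' protocols. The deposited intensity values were made by the authors with MAS5, per the submitters' processing notes, whose version is not given in the sources used here. They are linear signals for 54675 probe sets, and the mean after trimming 2% at each end is 500.07, averaged over the 6 arrays. Levels were taken as relative to each array's total, and levels of different probe sets were not compared. Log2 signals were used without further normalization. The 62 Affymetrix control probe sets and those dimmer than the median were left out, and 27307 were fitted over the 6 arrays with limma 3.58.1 in R 4.3.3 (intensity trend, residual df 4, prior df 6.15, Benjamini-Hochberg over all probe sets tested, calls at 0.05). The number of arrays limits the precision. Only probe sets with 1 gene symbol in the platform annotation were named (41091, with 1801 carrying several), symbols were checked through Entrez identifiers against RefSeq, and the brightest tested probe set stood for a gene.

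The 10 genes, the 6 lists and the tests were chosen with earlier results of these data known. Each list contributed up to 3 genes by name, those with the largest absolute log2 fold change among those called and without overlap between the arrays of the groups. Alternatives were quantile normalization, centring on array medians, 50 added to each signal, other brightness filters, no trend, a replicate block, the mean of a gene's probe sets, leaving out each array, and, chosen after seeing the data, centring on 18 hybridisation control probe sets. The fit was tested on simulated data.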

Additional observations from a re-analysis of the deposited data

How the results depend on the processing

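With arrays centred on their medians, 2302 probe sets were called higher and 5975 lower, with 4 lower among the enzyme probe sets, 3 lower among the enzyme genes and 25 lower in the pathway lists. With a filter at the 75% quantile of brightness, 2422 probe sets were higher, and 1 enzyme probe set and 0 enzyme genes were lower, since GNMT was too dim to be tested. Centring arrays by their hybridisation controls, an alternative chosen after seeing the data, gave 1920 higher and 2011 lower, 1 enzyme probe set lower, and 7 higher and 7 lower in the pathway lists. With the replicate block, 1 enzyme probe set and 1 enzyme gene (PSPH, log2 fold change 0.40) were called higher. That block gave 4214 probe sets higher and 3774 lower, against 3679 and 3209 without it. Deviations of same-numbered samples correlated at 0.089, -0.007 and 0.166, and not every sample correlated best with its own number. Whether samples with the same number shared a preparation or a batch was not tested. Leaving out 1 array at a time gave 0 to 2 enzyme probe sets and 0 to 1 enzyme genes higher, and 2118 (without MFAP5 replicate 2) to 3117 probe sets lower. The FOLR1 log2 fold change was -0.0084 when its probe sets were averaged. GNMT was called lower under every alternative that tested it, from -2.30 to -1.27. The SHMT2 value of 214095_at was 0.0003 without MFAP5 replicate 3. The cause of these changes was not tested, apart from the filter. Signals near the brightest Bacillus control limit what can be said of GNMT, SHMT1, MTHFD1L and ALDH1L2.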
